A study of Mus musculus with 8 samples.

Results

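The genes described here are 38 neighbours on mouse chromosome 15, running from Vps13b to Ext1 in the reference gene order, out of 19938 genes measured in 8 primary mouse osteosarcomas. They were chosen on the difference between the study's tumour models that earlier results of these data had shown for this stretch. The model difference is therefore given below as a description. Test calls of members on it are printed only beside their shares over all genes, and nothing is read from them. A gene was taken as a member when a probe set (the group of array probes that reads 1 gene) carried its symbol and no other. All 38 were found, and the probe set with the highest mean over the tumours stood for the gene. A further 22 measured genes lie between the ends of the interval and are no members.

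RNA was taken from C57Bl6 mice and each array held 1 tumour. In the shRNA OS model (4 tumours), p53 was targeted by the short hairpin RNA transgene P53.1224. In the Cre:lox OS model (4 tumours), the p53 genotype was P53fl/fl, meaning floxed alleles. In each model replicate numbers follow the order of deposition, and 3 tumours were Rbfl/+ (1 floxed Rb allele) and 1 was Rb+/+. In shRNA OS the Rb+/+ tumour was replicate 2, replicates 1 to 3 grew in the tibia and replicate 4 in the humerus. In Cre:lox OS the Rb+/+ tumour was replicate 1, from the scapula, replicate 2 came from the humerus, and replicates 3 and 4 from the tibia. The labels give no age, no Cre driver and no promoter for the hairpin.

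Levels are the authors' log2 expression values, so a difference of 1 on this scale is a doubling of the value. The number of arrays limits the precision. Bone-forming cells were evident in every tumour: 6 of 10 osteoblast markers fixed for the check were measured, and their mean level was 12.14 to 12.39 in shRNA OS and 11.56 to 12.22 in Cre:lox OS, against a median of 7.55 over all genes. The shRNA OS tumour numbered replicate 2 had an unusual array: its correlations with the other 7 arrays averaged 0.941, where every other array averaged 0.961 to 0.968. It had the highest of the 8 values in 21.4% of all genes and the lowest in 23.2%. For members and neighbouring genes whose difference turned on it, the value without it is also given. Marker lists of other cell types differed between the models as well. Each of 7 macrophage genes was lower on average in shRNA OS (list mean 9.33 to 10.91 against 9.90 to 11.27 in Cre:lox OS) and each of 6 endothelial genes was higher (9.47 to 10.06 against 9.02 to 10.04). No gene of these 2 lists passed limma's test, and their part in the results below was not tested. In bulk tumour RNA, fewer cells of a type and less RNA per cell cannot be told apart.

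Genes that lie side by side on a chromosome need not share a function, and this stretch holds a mixture. It includes subunits of the translation factor eIF3 (Eif3e and Eif3h), the cohesin subunit Rad21, which helps to hold sister chromatids together, and Ext1, an enzyme that builds heparan sulphate chains and whose loss causes cartilage-capped bone outgrowths. It also holds secreted ligands of bone and vessel biology, among them Angpt1 and Rspo2. Osteosarcoma genomes are known for gains and losses of large chromosome segments, which can alter the RNA of neighbouring genes together. DNA copy number was not measured on these arrays.

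Most members stood higher in shRNA OS. A higher mean in shRNA OS than in Cre:lox OS was found for 35 of 38 members, where the share over all genes was 51.9%. The median difference over the members was 0.53 (log2), with a range from -0.16 for Utp23 to 2.51 for A930017M01Rik, and the median over all genes was 0.01. In 12 members all 4 shRNA OS tumours lay above all 4 Cre:lox OS tumours, where 2% of all genes did so, and in 0 members they all lay below, where 3.44% did. At limma's adjusted p under 0.05, 1 of 38 members was called, A930017M01Rik, where 0.0201% of all genes were called in either direction and 0.015% as higher in shRNA OS. At an unadjusted p under 0.05, 23 members were higher in shRNA OS, where 3.61% of all genes were, and 0 were lower, where 6.02% were. Since the members were chosen on this contrast, nothing is read from these shares. Without shRNA OS replicate 2 the median difference was 0.65, and 4 members had the other sign (Snx31, Cthrc1, Eif3h and Rad21).

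**Figure D1:**
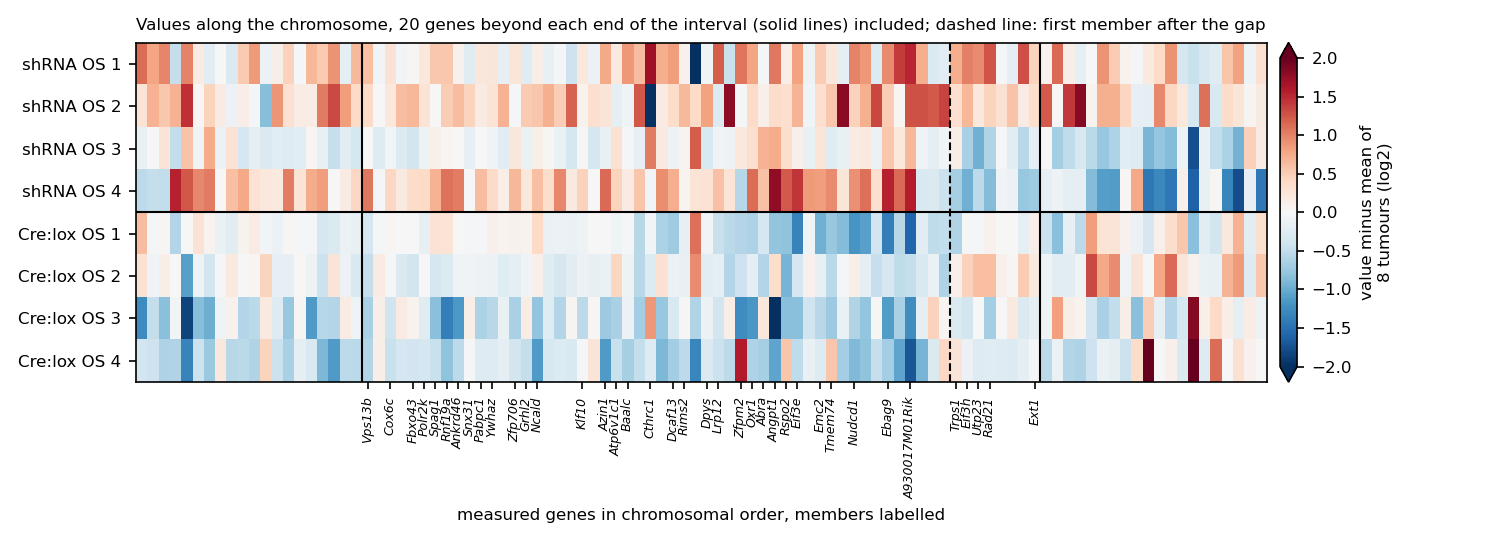
Each row is a tumour, shRNA OS above Cre:lox OS, and each column a measured gene in chromosomal order, with 20 genes beyond each end of the interval. Colour gives the log2 value minus the gene's mean over 8 tumours, capped at 2 in either direction. Red prevails in shRNA OS replicates 1, 2 and 4 up to the dashed line, after which replicates 3 and 4 turn blue.

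The difference was not spread evenly along the interval. Its widest gap between neighbouring members lies between A930017M01Rik and Trps1, and the members fall into 33 before it and 5 after it. The gap is the longest distance in bases between the starts of neighbouring members, and it was chosen by that rule after the values were known. Before it, 32 of 33 members had a higher mean in shRNA OS and the median difference was 0.68. After it, 3 of 5 did and the median difference was 0.03, and without shRNA OS replicate 2 it was 1 of 5 and -0.17. All 12 members whose models did not overlap lie before the gap. The 10 members from Oxr1 to A930017M01Rik, a stretch picked from the values, had a median difference of 1.28 and held 7 of the 12. The 23 members from Vps13b to Zfpm2 had a median difference of 0.42 and held the other 5.

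**Figure D2:**
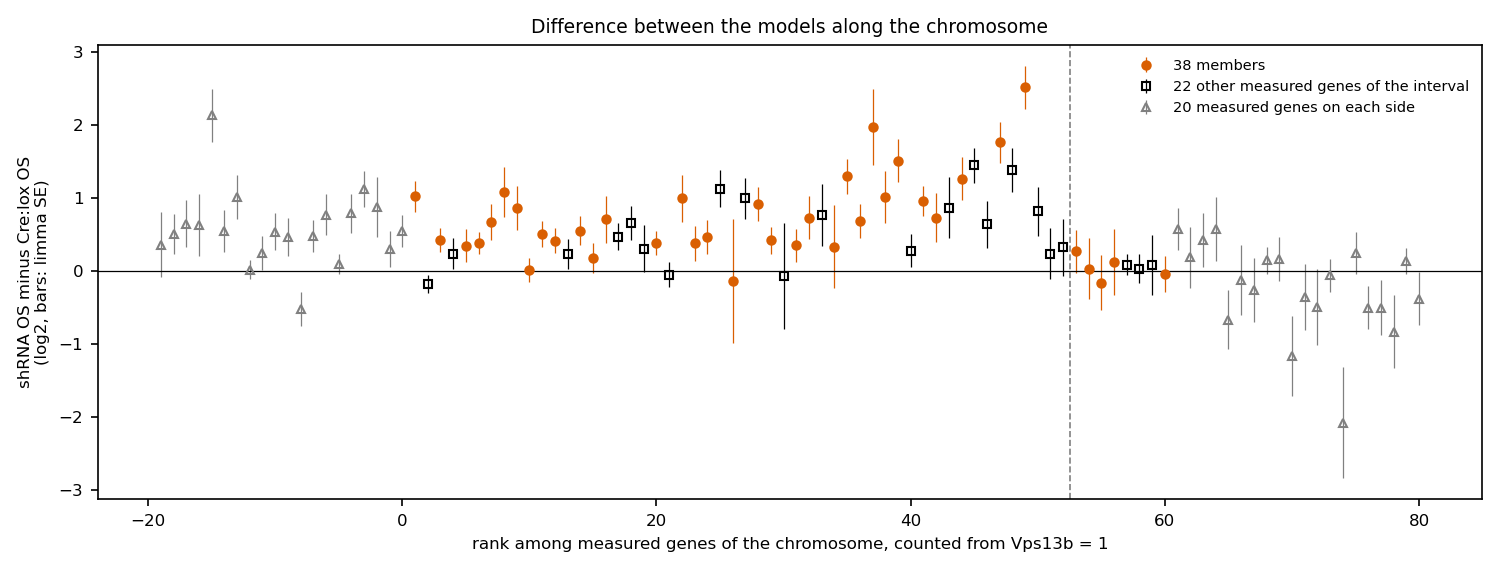
The vertical axis gives the difference of shRNA OS minus Cre:lox OS (log2, bars are limma's SE) for each measured gene, and the horizontal axis its rank along the chromosome. The members' differences vary without a steady climb, and the largest is 2.51 at A930017M01Rik. After the dashed line that marks the gap they lie between -0.16 and 0.27.

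Individual tumours behaved differently on the opposite sides of the gap. For each tumour the value of a gene was set against that gene's mean over the 8 tumours. Over the 33 members before the gap, the median of this deviation in shRNA OS replicates 1 to 4 was 0.28, 0.37, 0.03 and 0.62, against -0.09, -0.16, -0.63 and -0.45 in Cre:lox OS replicates 1 to 4. The models did not overlap there. Over the 5 members after the gap it was 0.94, 0.36, -0.60 and -0.71 in shRNA OS and -0.03, 0.46, -0.28 and -0.12 in Cre:lox OS. After the gap the shRNA OS tumours thus held both the highest value and the 2 lowest, with all Cre:lox OS tumours between them. Over all genes the same medians lay between -0.09 and 0.04.

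The order of the shRNA OS tumours changed across the gap. The humeral tumour, shRNA OS replicate 4, had the highest of the 8 values in 21 of 33 members before the gap and the lowest in 4 of 5 after it. Over all genes it was the highest in 10.8% and the lowest in 7.80%. The tumour numbered shRNA OS replicate 1 was the highest in 5 of 5 members after the gap and in 5 of 33 before it, where it was in 10.9% of all genes. Its median deviation was already 0.80 in the 10 members from Oxr1 to A930017M01Rik, below only that of replicate 4 (1.17). The level after the gap minus the level before it was 0.66, -0.01, -0.64 and -1.34 in shRNA OS replicates 1 to 4, against 0.07, 0.61, 0.35 and 0.33 in Cre:lox OS replicates 1 to 4. Whether the tumours differ in DNA copy number here was not tested.

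**Figure D3:**
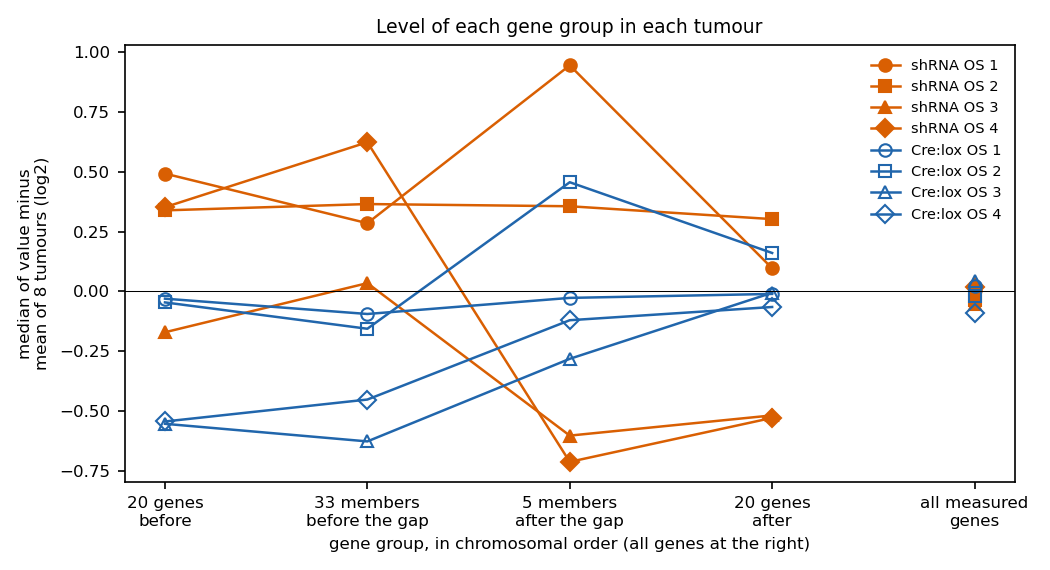
Points give, for each tumour, the median over a gene group of the log2 value minus the gene's mean over 8 tumours; lines join the groups of 1 tumour in chromosomal order, and all genes are shown at the right. The lines of shRNA OS replicates 3 and 4 drop across the gap, to -0.60 and -0.71, and that of shRNA OS replicate 1 climbs to 0.94.

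The Cre:lox OS tumours also changed order within the interval. In the 23 members from Vps13b to Zfpm2, Cre:lox OS replicates 3 and 4 were the lowest of all 8 tumours in 10 and 8 members, and replicate 1 in 2. These counts are 43.5%, 34.8% and 8.70% of the 23. Over all genes the same tumours were the lowest in 10.8%, 23.8% and 4.48%. In the 10 members from Oxr1 to A930017M01Rik, Cre:lox OS replicate 1 was the lowest in 5. Its median deviation was -0.88 there and -0.03 in the preceding 23 members. Those of Cre:lox OS replicates 2 to 4, all Rbfl/+, were -0.34, -0.84 and -0.64 in the same 10 members. Replicate 1 is the scapular, Rb+/+ tumour of that model.

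Of the 6 members that act in RNA synthesis, translation or ribosome assembly, 5 had higher means in shRNA OS, with a median difference of 0.44 over the 6. Eif3e, a subunit of the eIF3 complex that recruits ribosomes to messenger RNA, stood at 11.94, 11.81, 11.24 and 12.55 in shRNA OS replicates 1 to 4, against 9.79, 10.79, 10.29 and 10.63 in Cre:lox OS. Every shRNA OS tumour lay above every Cre:lox OS tumour, and the difference was 1.51 (SE 0.30). Pabpc1, which binds the poly(A) tail of messenger RNA, had 13.18, 13.10, 12.94 and 13.57 in shRNA OS and 12.91, 12.84, 12.32 and 12.69 in Cre:lox OS. Its models came close without overlapping, with a difference of 0.51 (SE 0.18). Dcaf13, a factor of ribosome assembly, had 10.65, 10.18, 9.71 and 10.55 in shRNA OS, against 9.11, 9.70, 9.51 and 9.11 in Cre:lox OS. The lowest shRNA OS tumour, replicate 3, lay just above the highest Cre:lox OS tumour, and the difference of the means was 0.91 (SE 0.23). Polr2k, a small subunit shared by the RNA polymerases, had 7.64 to 8.13 in shRNA OS and 7.39 to 7.75 in Cre:lox OS (difference 0.38).

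The other eIF3 subunit of the interval lies after the gap and had another pattern. Eif3h stood at 13.34, 13.01, 11.70 and 11.37 in shRNA OS, against 12.31, 12.80, 11.98 and 12.22 in Cre:lox OS. Replicates 1 and 2 of shRNA OS were above and replicates 3 and 4 below all Cre:lox OS tumours, so the means differed by 0.03 (SE 0.42), or by -0.19 without shRNA OS replicate 2. Utp23, needed for processing of the small ribosomal subunit's RNA, had 8.50, 7.78, 6.59 and 7.04 in shRNA OS and 7.53, 8.16, 7.56 and 7.30 in Cre:lox OS. Here too shRNA OS replicate 1 was the highest and replicates 3 and 4 the lowest of 8, and the difference was -0.16 (SE 0.38). With tibial tumours alone it was 0.19, and without shRNA OS replicate 2 it was -0.26.

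As in Eif3h, shRNA OS replicate 1 was the highest and replicate 4 the lowest of 8 in Rad21, the cohesin subunit. Its level was 12.70, 11.88, 10.84 and 10.58 in shRNA OS, against 11.52, 12.04, 10.77 and 11.20 in Cre:lox OS. Unlike in Eif3h, shRNA OS replicates 2 and 3 lay within the Cre:lox OS range. The spread within shRNA OS was 2.12, larger than the 1.27 within Cre:lox OS, and the means differed by 0.12 (SE 0.45), or by -0.01 without shRNA OS replicate 2. Fbxo43, an inhibitor of the anaphase-promoting complex best known from egg meiosis, was low throughout, with 5.87 to 6.90 in shRNA OS and 5.86 to 6.31 in Cre:lox OS. Its difference was 0.34, and 0.18 without shRNA OS replicate 2.

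**Figure D4:**
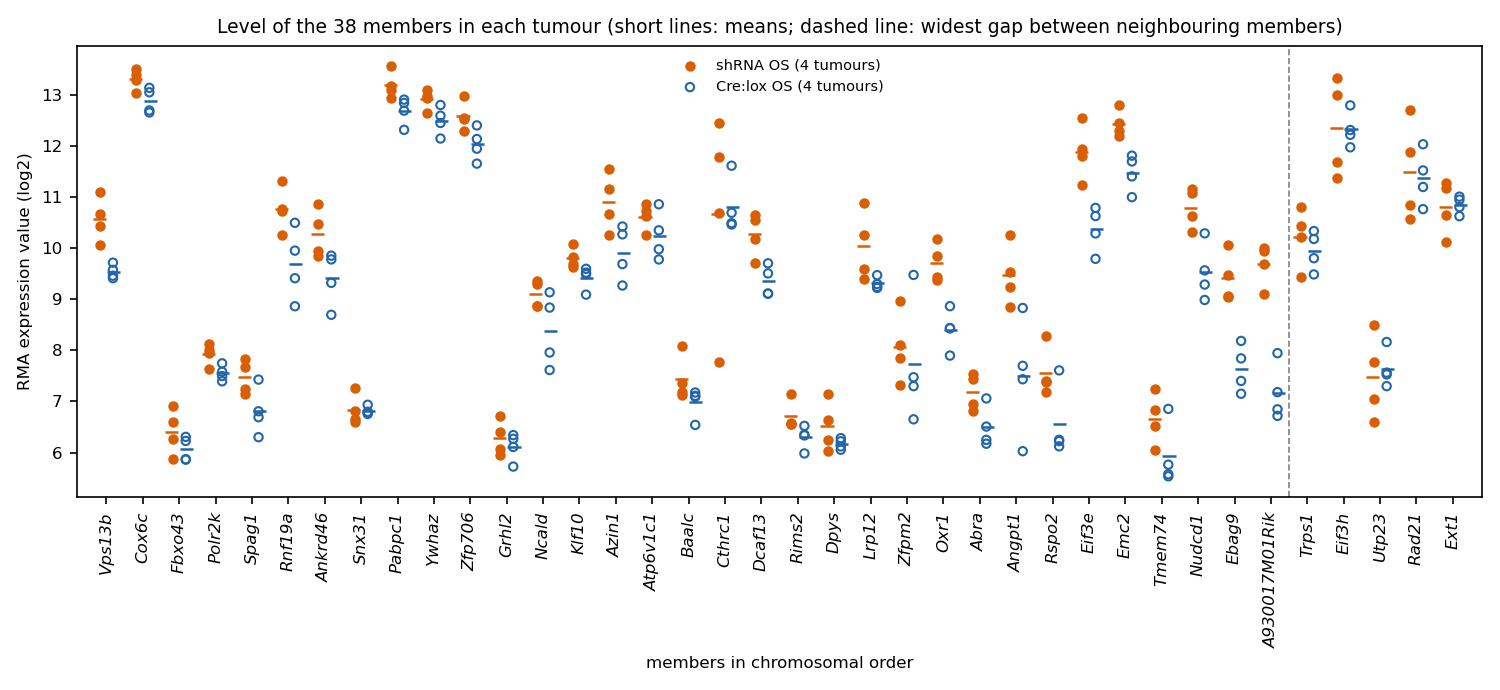
Each point is the log2 value of a member in 1 tumour, filled for shRNA OS and open for Cre:lox OS, with members in chromosomal order and short lines for the means of 4 tumours. The clearest separations run from Oxr1 to A930017M01Rik, and after the dashed line the shRNA OS points spread above and below those of Cre:lox OS.

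Among secreted and matrix members the largest difference was that of Angpt1, the ligand that activates the endothelial receptor Tie2. It had 9.54, 8.85, 9.23 and 10.26 in shRNA OS, against 7.70, 8.83, 6.03 and 7.43 in Cre:lox OS. Cre:lox OS replicate 2 came close to the lowest shRNA OS tumour, and replicate 3 was far below the rest. The difference was 1.97 (SE 0.52). Tek, which encodes that receptor and lies on chromosome 4, had 8.23, 9.06, 9.40 and 9.32 in shRNA OS and 8.67, 7.25, 7.40 and 8.66 in Cre:lox OS (difference 1.01, SE 0.39, limma adjusted p = 0.439). The Tek values overlapped between the models.

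Rspo2, a secreted enhancer of Wnt signalling, had 7.19, 7.39, 7.40 and 8.28 in shRNA OS, against 6.25, 6.12, 6.22 and 7.61 in Cre:lox OS. Of the Cre:lox OS tumours only replicate 4 reached the shRNA OS range, and the difference was 1.02 (SE 0.36). Cthrc1, a secreted protein with a short collagen-like part, had 12.44, 7.77, 11.79 and 10.70 in shRNA OS and 10.69, 10.46, 11.62 and 10.49 in Cre:lox OS. Its difference of -0.14 (SE 0.85) turned on shRNA OS replicate 2, the array that stood apart, and was 0.83 without it. Ext1, at the far end of the interval, had 11.27, 11.18, 10.65 and 10.11 in shRNA OS, against 10.95, 11.01, 10.63 and 10.81 in Cre:lox OS, a difference of -0.05 (SE 0.25), which was -0.17 without shRNA OS replicate 2.

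The 5 transcription factor genes had differences of 0.17 to 0.55. Klf10, a zinc finger factor induced by TGF-beta, had 9.83, 9.69, 9.63 and 10.08 in shRNA OS, against 9.52, 9.49, 9.09 and 9.60 in Cre:lox OS, so that the models were just separate (difference 0.38, SE 0.16). Zfpm2, a cofactor of GATA factors, had 8.96, 7.85, 8.10 and 7.32 in shRNA OS and 7.30, 7.47, 6.65 and 9.48 in Cre:lox OS. The highest tumour of all 8 was a Cre:lox OS tumour, replicate 4, and the difference was 0.33 (SE 0.56), or -0.03 without Cre:lox OS replicate 3. Trps1, a repressor active in cartilage and bone development, had 10.81, 10.43, 10.21 and 9.43 in shRNA OS, against 9.49, 10.18, 9.80 and 10.34 in Cre:lox OS. It lies after the gap, and as in Eif3h, Rad21 and Ext1 shRNA OS replicate 1 was the highest and replicate 4 the lowest of 8 (difference 0.27, SE 0.30). Zfp706 had a difference of 0.55. The epithelial factor Grhl2 was low in every tumour (5.72 to 6.71), with a difference of 0.17, or 0.03 without shRNA OS replicate 2. Of 7 epithelial markers 5 were below the median gene.

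All 8 members that act in membranes, vesicles or organelles had higher means in shRNA OS, and 7 of 8 without shRNA OS replicate 2, the exception being Snx31. Vps13b, a lipid transfer protein of the Golgi, had 10.66, 10.44, 10.05 and 11.10 in shRNA OS, against 9.72, 9.58, 9.41 and 9.46 in Cre:lox OS. The Cre:lox OS tumours lay close together, and all were below shRNA OS (difference 1.02, SE 0.21). Emc2, a subunit of the complex that inserts proteins into the endoplasmic reticulum membrane, had 12.46, 12.29, 12.19 and 12.80 in shRNA OS and 11.00, 11.81, 11.41 and 11.70 in Cre:lox OS. Its difference was 0.95 (SE 0.21), again with no overlap. Rims2, a protein of the presynaptic release site, was low, with 6.58, 7.15, 6.56 and 6.55 in shRNA OS against 6.33, 6.35, 6.52 and 5.98 in Cre:lox OS. Cre:lox OS replicate 3 came close to 3 of the shRNA OS tumours, and the difference of 0.42 (SE 0.18) was 0.27 without shRNA OS replicate 2.

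The remaining 5 of these 8 overlapped between the models. The difference was 0.42 for Cox6c (cytochrome c oxidase), 0.38 for Atp6v1c1 (the proton pump of lysosomes), 0.73 for the receptor-like Lrp12 and 0.73 for Tmem74, a membrane protein linked to autophagy. Snx31, a sorting nexin, had 6.59 to 7.27 in shRNA OS and 6.76 to 6.94 in Cre:lox OS, a difference of 0.01. Without shRNA OS replicate 2, its highest value, the difference was -0.13.

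The 12 members with roles in signalling, ubiquitin transfer or metabolism all had higher means in shRNA OS, with a median difference of 0.79. Ebag9, a protein found at the Golgi, had 9.47, 9.04, 9.06 and 10.06 in shRNA OS, against 7.15, 8.18, 7.40 and 7.84 in Cre:lox OS. No Cre:lox OS tumour came near the shRNA OS range, and the difference was 1.76 (SE 0.28). Oxr1, which protects cells from oxidative damage, had 9.84, 9.44, 9.38 and 10.17 in shRNA OS and 8.43, 8.86, 7.90 and 8.43 in Cre:lox OS (difference 1.30, SE 0.24). Nudcd1 had 11.15, 10.63, 10.32 and 11.08 in shRNA OS, against 8.99, 10.29, 9.57 and 9.29 in Cre:lox OS. Its Cre:lox OS replicate 2 was close to the lowest shRNA OS tumour, and the difference was 1.26 (SE 0.29).

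Other enzymes of this group had overlapping models. Rnf19a, a ubiquitin ligase, had 10.76, 10.73, 10.26 and 11.32 in shRNA OS and 10.50, 9.95, 8.86 and 9.41 in Cre:lox OS, with a difference of 1.08 (SE 0.34). Azin1, the inhibitor of antizyme in polyamine metabolism, had 11.16, 10.67, 10.25 and 11.54 in shRNA OS, against 10.42, 10.27, 9.69 and 9.27 in Cre:lox OS (difference 0.99, SE 0.33). In both genes shRNA OS replicate 3, the lowest of its model, lay below Cre:lox OS replicate 1, and for Azin1 also just below Cre:lox OS replicate 2. Further differences were 0.87 for Ankrd46, 0.71 for the calcium sensor Ncald, 0.67 for Spag1, an assembly factor of ciliary dynein arms, 0.46 for Baalc, 0.41 for the 14-3-3 protein gene Ywhaz and 0.35 for Dpys, an enzyme of pyrimidine breakdown. The Dpys difference was 0.14 without shRNA OS replicate 2.

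Abra, an actin-binding protein of striated muscle, had 6.81, 6.95, 7.53 and 7.43 in shRNA OS, against 6.51, 6.25, 7.06 and 6.17 in Cre:lox OS, a difference of 0.68 (SE 0.24). Its highest value was in shRNA OS replicate 3, which also had the highest mean level of 8 skeletal muscle markers. That mean level was 8.57, 7.48, 10.50 and 8.04 in shRNA OS replicates 1 to 4. In Cre:lox OS replicates 1 to 4 it was 10.21, 8.03, 10.26 and 9.09. Of those markers 7 had lower means in shRNA OS. The part of muscle in the Abra value was not tested.

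A930017M01Rik, annotated in the reference gene table as a transcribed pseudogene, had the largest difference of the members. It stood at 9.95, 9.70, 9.10 and 9.999 in shRNA OS, against 6.85, 7.95, 7.18 and 6.72 in Cre:lox OS, a difference of 2.51 (SE 0.29). The lowest shRNA OS tumour was more than 1 unit above the highest Cre:lox OS tumour. A second probe set of the same gene, not used here, had 8.85, 8.71, 8.30 and 9.30 in shRNA OS and 6.20, 6.94, 6.37 and 5.66 in Cre:lox OS, a difference of 2.49.

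For 3 members the probe set used may not read the gene of this interval. Probe set numbers on this array follow the chromosomes, and those used for Cox6c, Ywhaz and Zfp706 lie among numbers whose genes are on chromosomes 12, 3 and 1. In each case at least 11 of the 12 nearest named probe sets belonged to that chromosome. Near-identical copies elsewhere in the genome are uncertain here. Each of the 3 genes has another probe set numbered with chromosome 15, and with these the difference was 0.34 for Cox6c, 0.29 for Ywhaz and 0.78 for Zfp706, in place of 0.42, 0.41 and 0.55. The median difference over the 38 members was then 0.59.

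The genes just outside the interval were described as well. Of the 5 nearest measured genes before Vps13b, all 5 had higher means in shRNA OS. Pop1, a subunit of RNase P, had 8.82, 9.33, 8.16 and 9.14 in shRNA OS and 7.96, 7.87, 7.73 and 7.39 in Cre:lox OS (difference 1.12), and Rida 0.79, with no overlap in either. The differences were 0.88 for Nipal2, 0.30 for Kcns2 and 0.55 for Osr2, and without shRNA OS replicate 2 those of Nipal2 and Kcns2 were 0.58 and 0.07. Over the 20 nearest genes on that side the median difference was 0.54, so the interval's start at Vps13b did not coincide with a change in level.

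Beyond Ext1, the 5 nearest genes were Samd12 (0.57), Tnfrsf11b (0.19), which encodes the bone-protecting decoy receptor osteoprotegerin, Colec10 (0.43), Mal2 (0.57) and Ccn3 (-0.67). None separated the models, and shRNA OS replicate 2 was the highest tumour in 3 of the 5. Without it the differences were 0.26 for Samd12, 0.02 for Colec10 and 0.06 for Mal2. Over the 20 nearest genes on that side the median difference was -0.19, or -0.44 without that tumour. The median deviation of shRNA OS replicates 3 and 4 over these 20 genes was -0.52 and -0.53, the lowest of the 8 tumours, as over the members after the gap.

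The 22 other genes of the interval had a median difference of 0.31, and 19 of them had a higher mean in shRNA OS. Without shRNA OS replicate 2 the median was 0.18 and 14 of the 22 had a higher mean. No overlap between the models was seen in 3. Eny2, a subunit of transcription and messenger RNA export complexes, had 11.87, 11.72, 11.20 and 12.11 in shRNA OS, against 9.91, 10.81, 10.21 and 10.20 in Cre:lox OS (difference 1.44). Sybu differed by 1.39 and the Wnt receptor gene Fzd6 by 1.13. Of the 22, 16 lay below the median gene, and in 14 of the 22 the highest value was that of shRNA OS replicate 2.

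Partners of the members in the same complexes were taken from lists fixed for this report. Of 89 such genes 83 were measured, 4 of them on chromosome 15. In shRNA OS the mean was higher for 29 and lower for 54 of them, with a median difference of -0.07. None passed limma's adjusted threshold over all genes, where 0.0201% did. The smallest adjusted p was 0.187, and 12 of the 83 had an unadjusted p under 0.05 in either direction, where 9.63% of all genes did. For 5 of the 83, Esco1, Cox7b, Polr2c, Polr2l and Ywhah, the probe set used is also numbered with genes of another chromosome, so which copy it reads is uncertain.

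Among 9 further eIF3 subunits the mean was higher for 3 and lower for 6, with a median difference of -0.20, and that of smallest p was Eif3f (0.52, SE 0.18, limma adjusted p = 0.381). Cohesin genes had a median of -0.06 over 12, led by the acetyltransferase gene Esco1 (-0.79, adjusted p = 0.336). RNA polymerase II genes had -0.23 over 11, led by Polr2f (-0.72, adjusted p = 0.239), and heparan sulphate genes -0.04 over 11, led by Hs2st1 (-0.65, adjusted p = 0.239). All 6 other 14-3-3 genes had lower means, with a median of -0.16, led by Ywhah (-0.68, adjusted p = 0.41, and -0.41 without shRNA OS replicate 2). Without that tumour Ywhag had the other sign, at 0.04. The medians were -0.21 for 7 V-ATPase genes (Atp6v1d -0.43, adjusted p = 0.57), -0.03 for 8 cytochrome c oxidase genes (Cox6b1 0.27, adjusted p = 0.577) and -0.13 for 8 genes of the endoplasmic reticulum membrane complex. The last of these lists held the partner of smallest p, Emc10 (0.91, SE 0.19, adjusted p = 0.187), which was higher in all 4 shRNA OS tumours. In the angiopoietin and R-spondin list 8 of 11 had higher means, with a median of 0.12, led by Tek. Signs also changed outside the 14-3-3 list when shRNA OS replicate 2 was left out. Eif3b (0.15), Stag1 (0.05), Stag2 (0.02), Cox8a (0.04), Extl2 (0.18), Hs6st1 (0.10) and Lgr6 (0.12) became positive. Cox4i1 (-0.0002), Emc9 (-0.02) and Rspo1 (-0.003) became negative.

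**Figure D5:**
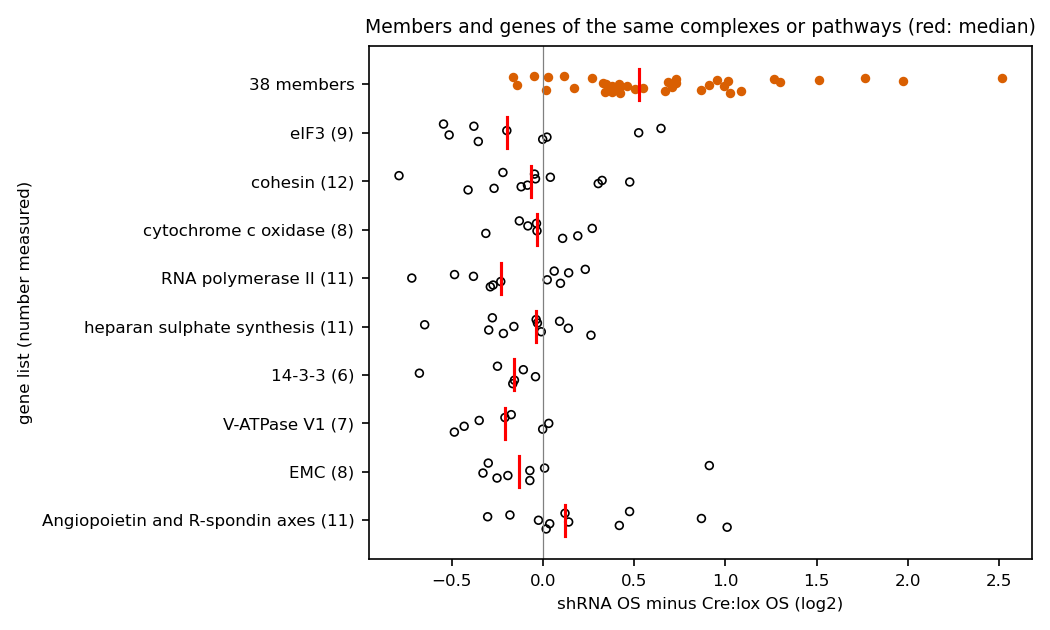
Points are differences of shRNA OS minus Cre:lox OS (log2) for single genes, with the 38 members at the top and 9 lists of partner genes under them; red lines are medians. The members' median is 0.53, and the medians of the partner lists lie between -0.23 and 0.12.

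Tumour site and Rb genotype had no part in choosing the members, so they were tested, with the model as a covariate. By site, the 5 tibial tumours were set against the 3 tumours of humerus and scapula. The difference adjusted for the model was negative for 28 of 38 members and positive for 10, where it was negative for 11063 of all 19938 genes. Unadjusted means could go the other way, as for Ebag9 (8.56 in tibial tumours, 8.47 in the others). The median adjusted difference was -0.22, against -0.03 over all genes. No member passed limma's adjusted threshold, and neither did any gene (0%). At an unadjusted p under 0.05 there were 11 members, where 5.64% of all genes were at that level. Of the 33 members before the gap 28 had a negative adjusted difference by site, and of the 5 after it 0 did.

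Rnf19a had the smallest p by site. It averaged 10.005 ± 0.84 in tibial tumours (SD, n = 5) and 10.59 ± 0.69 in those of other sites (SD, n = 3), with a difference of -0.94 adjusted for the model (SE 0.22, limma adjusted p = 0.647). Azin1 followed at -0.86 (SE 0.22, adjusted p = 0.672). On the other side Trps1 was 0.59 (SE 0.27, adjusted p = 0.901) and Zfpm2 0.81 (SE 0.56, adjusted p = 0.999). In shRNA OS the comparison of sites rests on 1 humeral tumour, replicate 4, the highest in most members. Without it the median difference was -0.21, and without the model as a covariate it was 0.0004.

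By Rb genotype, 18 members had higher and 20 lower means in the 6 Rbfl/+ tumours than in the 2 Rb+/+ tumours, with a median difference of -0.04, against -0.02 over all genes. No member passed limma's threshold, nor did any gene (0%), and 2 members had an unadjusted p under 0.05, where 4.73% of all genes did. These were Cthrc1 (2.02, SE 0.77, limma adjusted p = 0.836) and Dpys (-0.49, SE 0.22, adjusted p = 0.836). Cthrc1 averaged 11.25 ± 0.82 in Rbfl/+ tumours (SD, n = 6) and 9.23 ± 2.07 in Rb+/+ tumours (SD, n = 2), and its single low value was in shRNA OS replicate 2, which is Rb+/+ and whose array stood apart. Without that tumour the difference by Rb genotype was 0.16 for Cthrc1 and -0.15 for Dpys, and it rested on 1 Rb+/+ tumour, which is assumed to vary like the other tumours. Next in either direction were Ebag9 (0.58) and Ncald (-0.64), each with limma adjusted p = 0.836. All 10 members from Oxr1 to A930017M01Rik had higher means in Rbfl/+ tumours, with a median of 0.30, and 16 of the 23 preceding members had lower means. Without shRNA OS replicate 2 the difference was -0.03 for Oxr1, -0.01 for Abra and -0.27 for Angpt1, and positive for the rest of the 10. The scapular Rb+/+ tumour was low in those 10 members, as described above, and so were the Rbfl/+ tumours Cre:lox OS replicates 3 and 4.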

How the data were processed

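Each of 8 primary osteosarcomas was measured on a 1-colour array. The authors deposited log2 expression values that were made with RMA and build mm9, per the submitters' processing notes. For the software's version and for filters, nothing is given in the sources used here. Each array gave 35556 values.

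Names came from the platform annotation, and only the 21789 probe sets with 1 symbol were used. The highest-mean probe set stood for a gene. Gene order, and the distances that set the widest gap between members, came from start positions in the GRCm38.p6 reference gene table, whose coordinates are not printed. Each tumour has a number of its own in the titles, so tumours were taken as separate replicates, and the spread among them is what the p-values measure. No 2 arrays were identical.

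Contrasts were fitted over all 19938 genes with limma 3.58.1 (R 4.3.3), with Benjamini-Hochberg adjustment at 0.05, and the fit was tested on simulated data. The members, lists and named genes were chosen with earlier results of these data known. Values in every tumour are given for members whose models do not overlap, the 12 with the largest difference, the 6 with the widest range within a model, the highest-mean member of a role group with none of these, and a few others chosen after their values were seen. Promoters and proteins planned for display are not used here. Alternatives were other normalization, filters, probe sets, covariates and subsets, and leaving out each tumour.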

Additional observations from a re-analysis of the deposited data

Results flagged for a closer look

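For every member, and for 3 levels over several members, Dixon's criterion was used to find a tumour far from the others of its model. It was met in 3 of 82 tests, and chance meets it in about 1 in 20. Rims2 was 7.15 in shRNA OS replicate 2, the array that stood apart, against 6.55 to 6.58 in the other shRNA OS tumours. Rspo2 was 7.61 in Cre:lox OS replicate 4, where the other Cre:lox OS tumours had 6.12 to 6.25. In the same tumour Baalc was 6.54, against 7.09 to 7.18 in the other Cre:lox OS tumours.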

How the results depend on the processing

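The members' median difference between the models (0.53) ranged from 0.46 to 0.70 over the alternatives and from 0.49 to 0.65 when each tumour was left out. That of the 33 members before the gap ranged from 0.57 to 0.79. For the 5 after it the median of 0.03 changed sign, from -0.32 with array weights to 0.41 with tibial tumours only, and from -0.28 to 0.36 leaving out a tumour. The 12 members without overlap became 9 with median centring, and 12 to 19 leaving out a tumour, with 19 without Cre:lox OS replicate 1. They were 20 in Rbfl/+ tumours only and 24 in tibial tumours only. With fewer tumours any gene separates more easily. The share of all genes without overlap in these smaller sets is not given here, so nothing is read from the larger counts. Over these settings 33 to 37 members had higher means in shRNA OS. No member was called by site or Rb genotype and no partner gene by model in any setting. All of 340 recomputed differences of 20 members stayed within 1 SD. Leaving out 1 tumour cannot move the mean of its model by as much as 1 SD of that model. The limit is therefore no test of those settings, and nothing is read from it. Cthrc1 met it while going from -0.14 to 0.83 without shRNA OS replicate 2. Of the 340 differences 20, in 5 members (Cthrc1, Eif3h, Rad21, Utp23, Zfpm2), had the other sign. Snx31 also had the other sign without shRNA OS replicate 2. The splits at the gap and medians by site, Rb genotype, role group and neighbouring genes under alternatives were added after seeing the data. No paired analysis was possible because the labels give no shared replicate numbers.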
